A study of Homo sapiens with 12 samples.

Results

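The 8 genes described here are carried by mitochondrial DNA. They are the rRNA genes MT-RNR1 and MT-RNR2, the cytochrome c oxidase genes MT-CO1, MT-CO2 and MT-CO3, the ATP synthase genes MT-ATP6 and MT-ATP8, and the cytochrome b gene MT-CYB. They were taken by gene symbol, and all 8 were found among the 22148 genes measured. RNA came from HepG2, an established line grown from a human liver tumour that keeps many hepatocyte genes switched on. Cells given siCPSF6 or siNC were harvested after 0, 3 or 6 h of actinomycin D, which makes 6 groups of 2 biological replicates and 12 libraries. siCPSF6 cells had received siRNAs against CPSF6, a subunit of the cleavage factor that helps to choose the 3′ ends of nuclear mRNAs, and siNC cells the siRNA labelled si-NC, the control of the design, 48 h before actinomycin D was given at 5 µg/ml. All groups are the same cell line with no other allele named, and the sources used here do not give the siRNA sequences. The design asks how silencing of CPSF6 alters the amounts of RNAs and how fast they decline once transcription is blocked.

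Human mitochondrial DNA is copied from each strand into long precursors, and tRNAs between the genes mark where these are cut into single RNAs. The mRNAs are then given poly(A) tails, the rRNAs only short ones, and nuclear 3′ end factors such as CPSF6 are not known to take part. Actinomycin D binds DNA and blocks transcription, but whether it stopped transcription inside mitochondria was not measured in these libraries. Cytochrome c oxidase is complex IV of the respiratory chain and reduces oxygen, complex III carries cytochrome b, and ATP synthase is complex V. The other subunits of these complexes come from nuclear genes.

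All 8 genes lie on the plus strand of the mitochondrial chromosome of hg38, as GENCODE release 29 annotates them, and none has an intron. MT-RNR1 (ENSG00000211459.2, chrM:648-1601) and MT-RNR2 (ENSG00000210082.2, chrM:1671-3229) encode the small and the large mitochondrial rRNA. MT-CO1 (ENSG00000198804.2) lies at chrM:5904-7445, MT-CO2 (ENSG00000198712.1) at chrM:7586-8269 and MT-CO3 (ENSG00000198938.2) at chrM:9207-9990. MT-ATP8 (ENSG00000228253.1) lies at chrM:8366-8572, MT-ATP6 (ENSG00000198899.2) at chrM:8527-9207 and MT-CYB (ENSG00000198727.2) at chrM:14747-15887. The last bases of the 6 protein genes are shown because their ends differ in a way that bears on the tail, with the stop codon or the part of it that the DNA encodes in capitals.
MT-CO1: ttcgaagaacccgtatacataaaatctAGA
MT-CO2: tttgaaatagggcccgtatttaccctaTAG
MT-CO3: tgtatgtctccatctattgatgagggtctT
MT-ATP6: gtaagcctctacctgcacgacaacacaTAA
MT-ATP8: tcgcttcattcattgcccccacaatccTAG
MT-CYB: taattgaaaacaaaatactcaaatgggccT
MT-CO3 and MT-CYB end in a single T, and the tail added after cleavage is known to complete their stop codon. The DNA of MT-CO2, MT-ATP6 and MT-ATP8 carries a whole stop codon as annotated. The last base of that of MT-ATP6 is also the first base of MT-CO3, so the cut mRNAs cannot both hold it. MT-CO1 ends in AGA, which human mitochondria do not read as an amino acid. These letters are the reference of GENCODE release 29 and not the mitochondrial DNA of these HepG2 cells.

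MT-ATP8 and MT-ATP6 are read from a single mRNA in which they share 46 bases, shown because reads from these bases cannot be assigned to either gene (chrM:8527-8572; start codon of MT-ATP6 and stop codon of MT-ATP8 in capitals).
MT-ATP8 and MT-ATP6: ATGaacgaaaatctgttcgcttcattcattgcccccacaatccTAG
MT-ATP6 and MT-CO3 share 1 base, at which the precursor is known to be cut without a tRNA between the genes (chrM:9193-9222; stop codon of MT-ATP6 and start codon of MT-CO3 in capitals).
MT-ATP6 and MT-CO3: cacgacaacacaTAATGacccaccaatcac
GC content ran from 39.6% in MT-ATP8 to 46.6% in MT-CO3. A content ran from 26.8% in MT-CO3 to 38.6% in MT-ATP8, and was 33.0% in MT-RNR1 and 35.1% in MT-RNR2. Runs of at least 6 A numbered 4 in MT-RNR2, 1 each in MT-RNR1, MT-CO1 and MT-ATP8, and 0 in the others. The longest run of A within a gene was 7 bases in MT-RNR2 and MT-CO1 and 4 bases in MT-CYB.

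CPSF6 itself had normalized counts of 768 and 718 in siCPSF6 libraries against 2147 and 2082 in siNC libraries at 0 h, and at each time both siCPSF6 libraries were below all siNC libraries. Depth, recovered from the spacing of the deposited values, was 21800000 to 30300000 reads per library. All 10 hepatocyte markers were measured, and their summed level in a library was at least 590207 normalized counts. Of 14 genes that mark other cells (stroma, endothelium, immune cells) 8 were in the table and 5 passed the filter on low values. Their summed level was 433 to 1174 in siCPSF6 libraries and 251 to 552 in siNC libraries, so it moved with the siRNA, and its part in the results below was not tested. COL3A1, a fibroblast collagen gene, did not exceed 2 and VWF, an endothelial marker, did not exceed 4 normalized counts in any library. These are bulk libraries, in which fewer cells of a type and less RNA per cell cannot be told apart.

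At 0 h the 8 RNAs together took 6.85% to 7.27% of all normalized counts of a library, and the count of MT-CO1 was the highest of all 22148 genes in both siRNA groups, while MT-ATP8 ranked 747 in siCPSF6 and 763 in siNC. Levels of different genes are compared per length, in TPM, a unit that divides reads by gene length and scales every library to the same sum. At 0 h the mean TPM in siCPSF6 and in siNC libraries was 25644 and 24704 for MT-CO2, 20934 and 19220 for MT-CO3, and 20424 and 18699 for MT-CO1. MT-RNR2 followed with 12629 and 14705 TPM and MT-ATP6 with 14730 and 14189 TPM. MT-CYB stood lower, at 5894 ± 537 TPM in siCPSF6 and 5170 ± 29.7 TPM in siNC libraries (SD, n = 2 each), as did MT-RNR1, at 3614 ± 655 TPM in siCPSF6 and 3638 ± 12.7 TPM in siNC libraries (SD, n = 2 each). Neighbours in this order overlapped: MT-CO3 (SD 1056 in siCPSF6, n = 2) and MT-CO1 (SD 898) were not apart in siCPSF6 libraries, and MT-RNR2 and MT-ATP6 changed places between the siRNAs. The order also depends on the length that TPM divides by, which relative to MT-CO1 was 462 bases for MT-CO2 (684 annotated) and 588 bases for MT-CO3 (784 annotated) in the median library. Per annotated base the median count was 0.626 of that of MT-CO1 for MT-CO2 and 0.632 for MT-CO3 over the 12 libraries, so neither MT-CO2 nor MT-CO3 stands above MT-CO1 by this measure. The TPM level of MT-ATP8 is not given here. Count over TPM implied an effective length of only 3 to 6 bases, differing between libraries, for a gene of 207 bases. Its changes in TPM below carry this limit.

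The rRNAs had the largest rises of the 8 in actinomycin D. The libraries are described as mRNA libraries, and the sources used here do not say how mRNA was separated from rRNA. MT-RNR1 had 40339 and 50718 normalized counts in siCPSF6 and 44223 and 43085 in siNC libraries at 0 h. At 3 h it had 374054 and 383400 in siCPSF6 and 351531 and 340893 in siNC, and at 6 h 464388 and 473591 in siCPSF6 and 428092 and 405786 in siNC. The 8 libraries of 3 and 6 h all lay far above the 4 of 0 h, and most of the gain was there by 3 h. At 6 h against 0 h MT-RNR1 was 10.4-fold higher in siCPSF6 (log2 3.37, SE 0.09, limma adjusted p = 3.8e-13) and 9.55-fold higher in siNC (log2 3.26, SE 0.09, limma adjusted p = 3.3e-13). Only 2 of 12939 tested genes had a larger log2 rise from 0 to 6 h in siCPSF6, where MT-RNR1 ranked 3, and it ranked 7 in siNC.

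MT-RNR2 had 306299 and 311354 normalized counts in siCPSF6 and 351034 and 339684 in siNC libraries at 0 h. At 3 h the values were 872443 and 906207 in siCPSF6 and 859612 and 837402 in siNC, and at 6 h 1239363 and 1270548 in siCPSF6 and 1126915 and 1116755 in siNC. No library of 3 or 6 h overlapped with those of 0 h, and siCPSF6 passed from below siNC at 0 h to above it at 6 h. The change at 6 h against 0 h was 2.02 on the log2 scale in siCPSF6 (SE 0.07, limma adjusted p = 5.1e-12) and 1.70 in siNC (SE 0.07, limma adjusted p = 8.6e-12). By count MT-RNR2 ranked 2 of all genes at 0 h and 1 at 3 and 6 h with both siRNAs. The rRNAs together took 1.69% to 2.02% of a library at 0 h, 4.29% to 4.67% at 3 h and 4.67% to 5.34% at 6 h. The 6 mRNAs took 4.87% to 5.47%, 4.01% to 4.33% and 3.33% to 3.47% at these times.

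The deposited values set the upper quartile of every library to the same level, so a change over time is relative to the other RNAs. Spike-in RNA, which was mixed into 5 µg of total RNA and so does not count cells, rose by 0.93 on the log2 scale in siCPSF6 and by 1.01 in siNC from 0 to 6 h on this scale, and by 0.59 and 0.73 from 0 to 3 h. Scaled to the spike-ins, MT-RNR1 was higher by 2.44 in siCPSF6 and 2.24 in siNC at 6 h (SE 0.14 each), and MT-RNR2 by 1.09 in siCPSF6 and 0.69 in siNC (SE 0.13 each), and all of these passed the test. Nearly the whole rise of MT-RNR1 had occurred by 3 h on this scale (2.48 in siCPSF6 and 2.26 in siNC), and from 3 to 6 h its change was -0.04 and -0.02, not passing the test. RNAs known to lack a poly(A) tail gave mixed values: RN7SL2, the RNA of the signal recognition particle, rose by 1.10 in siCPSF6 and 1.68 in siNC at 6 h as deposited (SE 0.24 each), and on the spike-in scale had 0.17, not passing, in siCPSF6 and 0.67 in siNC. Of 5 such RNAs that passed the filter 2 were called higher in siCPSF6 and 5 in siNC as deposited, against 49.8% and 48.6% of all genes. RN7SK (0.01), RMRP (-0.15) and RPPH1 (0.28) did not pass in siCPSF6. Relative to the spike-ins none was higher and 2 were lower in siCPSF6 (RN7SK -0.92 and RMRP -1.04), and 1 was higher and none lower in siNC, with medians of -0.63 and 0.13. Their part in the rRNA result was not tested.

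**Figure D1:**
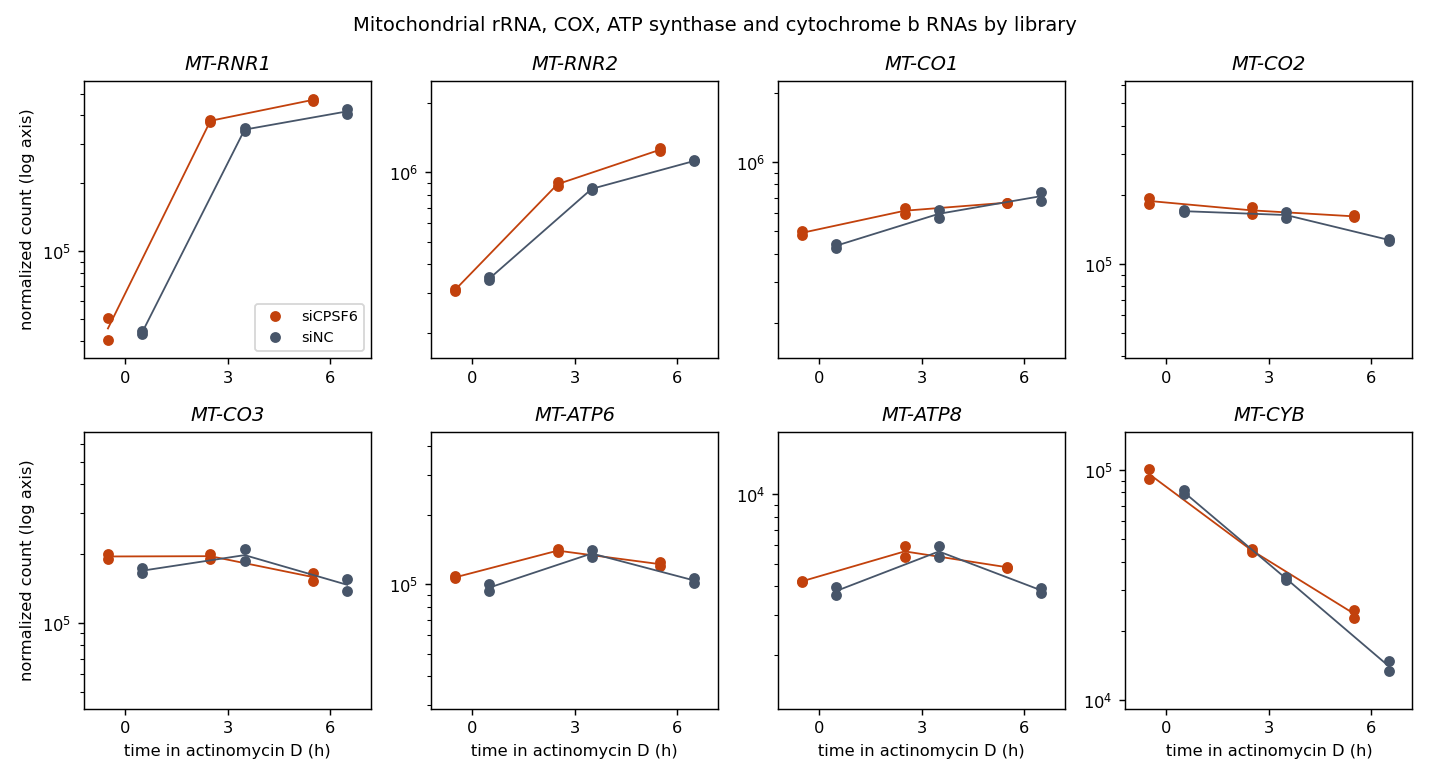
Normalized counts (log axis, each panel with its own range) of the 8 RNAs against time in actinomycin D, with a point for each library, lines through the 2-replicate means, and siCPSF6 drawn left of siNC at each time. MT-RNR1 and MT-RNR2 climb by 3 h, MT-CYB falls at both steps, and on this deposited scale the other RNAs move less.

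The mRNAs of cytochrome c oxidase did not move together: at 6 h MT-CO1 was higher and MT-CO2 and MT-CO3 lower as deposited, and on the spike-in scale all 3 were lower, MT-CO2 and MT-CO3 by more than MT-CO1. MT-CO1, whose protein holds the heme centres of the enzyme, had 484185 and 501019 normalized counts in siCPSF6 and 441810 and 424507 in siNC libraries at 0 h. At 3 h it had 595005 and 633645 in siCPSF6 and 617720 and 573744 in siNC, and at 6 h 666935 and 665173 in siCPSF6 and 744482 and 677912 in siNC. The libraries of 3 and 6 h lay above those of 0 h with both siRNAs, while siCPSF6 and siNC overlapped at 3 h. As deposited MT-CO1 rose from 0 to 6 h by 0.44 in siCPSF6 (SE 0.07, limma adjusted p = 6e-05) and by 0.71 in siNC (SE 0.07, limma adjusted p = 2.4e-07), but scaled to the spike-ins it fell by 0.50 in siCPSF6 and by 0.30 in siNC (SE 0.13 each), passing the test on both scales, and in TPM it was also lower, by -0.32 and -0.16.

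MT-CO2, which takes up electrons from cytochrome c, had 183238 and 192844 normalized counts in siCPSF6 and 171986 and 167682 in siNC libraries at 0 h. At 3 h the values were 165600 and 176780 in siCPSF6 and 167880 and 158888 in siNC, and at 6 h 159815 and 162619 in siCPSF6 and 128538 and 126346 in siNC. The 6 h libraries were below the 0 h libraries with either siRNA, and the siNC libraries of 6 h were the lowest of all 12. The fall at 6 h was -0.22 on the log2 scale in siCPSF6 (SE 0.07, limma adjusted p = 0.0066) and -0.41 in siNC (SE 0.07, limma adjusted p = 3.2e-05), and -1.16 and -1.43 when scaled to the spike-ins. Without siCPSF6 0 h replicate 2 the first of these was -0.18 (limma adjusted p = 0.05) and was not called.

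MT-CO3 had 190338 and 198569 normalized counts in siCPSF6 and 172913 and 164363 in siNC libraries at 0 h. At 3 h it had 190041 and 199993 in siCPSF6 and 208740 and 185478 in siNC, and at 6 h 164472 and 152033 in siCPSF6 and 155368 and 137537 in siNC. Its highest value was in a siNC library of 3 h, and in each siRNA group the 6 h libraries were the lowest. At 6 h it was lower by log2 -0.30 in siCPSF6 (SE 0.08, limma adjusted p = 0.0035) and -0.21 in siNC (SE 0.08, limma adjusted p = 0.029), and on the spike-in scale by -1.23 and -1.22. The call in siNC was lost without siNC 0 h replicate 1 (-0.17) or siNC 6 h replicate 2 (-0.12). The rise in siNC at 3 h (0.22, limma adjusted p = 0.022) was lost without siNC 0 h replicate 2 (0.19) or siNC 3 h replicate 1 (0.14), and on the spike-in scale and in TPM it was a fall of -0.50 and -0.40.

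The ATP synthase mRNA was highest at 3 h. MT-ATP6, a subunit of the proton channel, had 108238 and 106171 normalized counts in siCPSF6 and 100360 and 93186 in siNC libraries at 0 h. At 3 h it had 142294 and 137910 in siCPSF6 and 141106 and 131243 in siNC, and at 6 h 124823 and 119860 in siCPSF6 and 106242 and 101600 in siNC. In each siRNA group the 3 h libraries stood above those of both other times. At 3 h against 0 h MT-ATP6 was higher by 0.39 in siCPSF6 (SE 0.07, limma adjusted p = 0.00014) and 0.49 in siNC (SE 0.07, limma adjusted p = 1e-05) as deposited. On the spike-in scale these differences were -0.20 and -0.23, not passing the test, and in TPM -0.10 and -0.15.

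MT-ATP8, the small partner subunit, had 4222 and 4170 normalized counts in siCPSF6 and 3943 and 3674 in siNC libraries at 0 h. At 3 h it had 5954 and 5359 in siCPSF6 and 5972 and 5332 in siNC, and at 6 h 4858 and 4792 in siCPSF6 and 3932 and 3723 in siNC. In siCPSF6 the order of the times was that of MT-ATP6. In siNC the 3 h libraries were also the highest, but those of 0 and 6 h overlapped. At 6 h siCPSF6 and siNC were apart. At 6 h against 0 h MT-ATP6 and MT-ATP8 rose by 0.19 and 0.20 in siCPSF6 (SE 0.07 each, limma adjusted p = 0.019 and 0.022), while in siNC their differences of 0.10 and 0.01 did not pass (limma adjusted p = 0.17 and 0.93). With the replicate number as a block the value of MT-ATP6 in siNC passed (limma adjusted p = 0.027). On the spike-in scale both had fallen by 6 h. MT-ATP6 fell by 0.74 in siCPSF6 and 0.91 in siNC, and MT-ATP8 by 0.73 in siCPSF6 and 1.0 in siNC. Median-ratio scaling and TPM also gave values below 0 for both with either siRNA. The TPM values of MT-ATP8 rest on the implied length of 3 to 6 bases given above. The rises in siCPSF6 were lost without siCPSF6 0 h replicate 2 or siCPSF6 6 h replicate 1 (0.18 and 0.16 for MT-ATP6, 0.19 without either for MT-ATP8), and that of MT-ATP8 also without siCPSF6 0 h replicate 1 or siCPSF6 6 h replicate 2 (0.21 without either).

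As deposited, MT-CYB was the single RNA of the 8 that fell steeply. It had 91048 and 100697 normalized counts in siCPSF6 and 81963 and 78821 in siNC libraries at 0 h. At 3 h it had 44151 and 45306 in siCPSF6 and 33310 and 34250 in siNC, and at 6 h 22657 and 24765 in siCPSF6 and 13377 and 14788 in siNC. No 2 of the 6 groups overlapped, and siCPSF6 was above siNC at each time. At 6 h MT-CYB stood at 24.7% of its 0 h level in siCPSF6 (log2 -2.02, SE 0.07, limma adjusted p = 1.7e-11) and at 17.5% in siNC (log2 -2.51, SE 0.07, limma adjusted p = 7.2e-13). On the spike-in scale it stood at 12.9% in siCPSF6 and 8.68% in siNC. There MT-CO2 stood at 44.9% and 37.2%, MT-CO3 at 42.6% and 43%, and MT-ATP8 at 60.2% and 49.8%. By count MT-CYB ranked 15 in siCPSF6 and 17 in siNC among 22148 genes at 0 h, and 164 and 311 at 6 h.

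**Figure D2:**
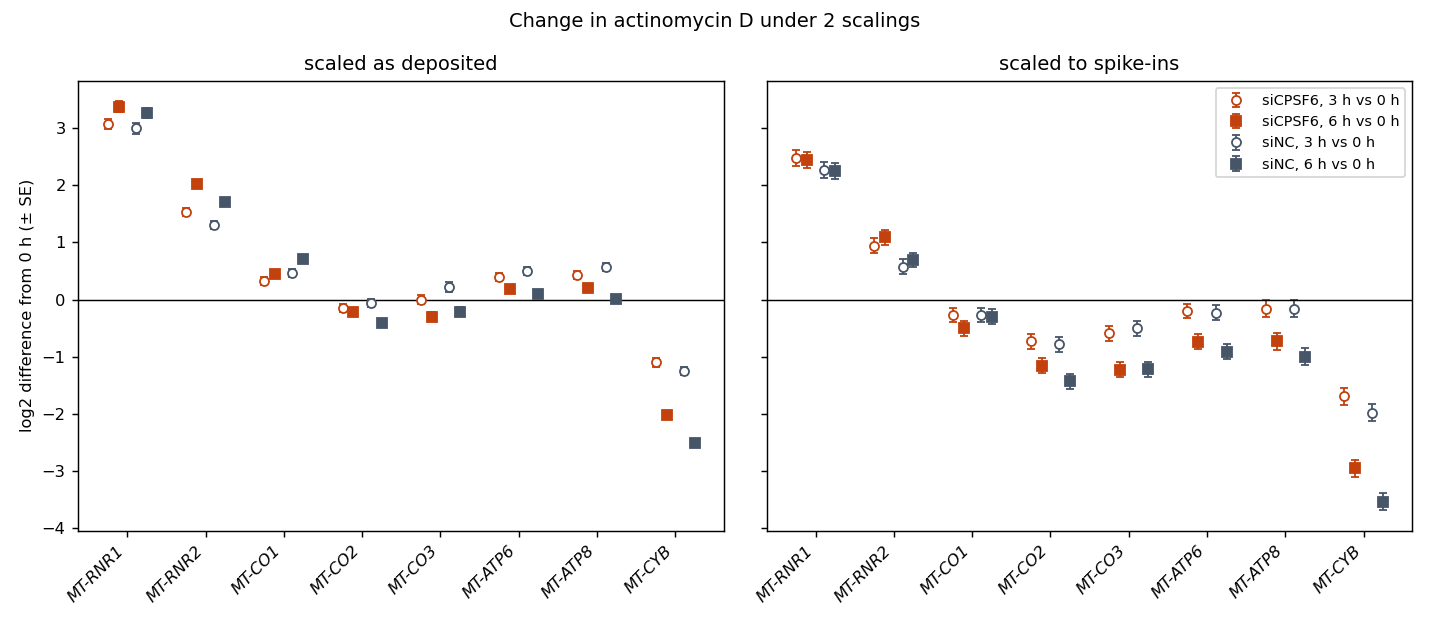
Log2 difference from 0 h at 3 h (open circles) and 6 h (squares) for each RNA, scaled as deposited (left) and to the spike-ins (right); bars are the SE of the fit of 12 libraries. MT-RNR1 and MT-RNR2 are above 0 and MT-CYB below 0 in both panels, whereas MT-CO1, MT-ATP6 and MT-ATP8 are above 0 only as deposited.

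Counted over the 8 RNAs, at 6 h against 0 h 5 were called higher and 3 lower in siCPSF6 and 3 higher and 3 lower in siNC, at an adjusted p under 0.05. Here and in all counts below, MT-ATP6 and MT-ATP8 count separately although they are read from a single mRNA. Of all 12939 genes tested 49.8% were called higher and 27.6% lower in siCPSF6, and 48.6% higher and 30.7% lower in siNC. The median log2 difference of the 8 was 0.20 in siCPSF6 and 0.06 in siNC, against 0.35 and 0.31 over all genes. At 3 h against 0 h 5 were higher and 1 lower in siCPSF6 (43.6% and 22.9% of all genes) and 6 higher and 1 lower in siNC (45.8% and 25.7%). MT-CO2 at 3 h in siCPSF6 (-0.14) did not pass as deposited but did with the replicate block (limma adjusted p = 0.011).

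Scaled to the spike-ins, 2 of the 8, the rRNAs, were higher and 6 lower at 6 h with both siRNAs. Here 3.59% of all genes were called higher and 55.5% lower in siCPSF6, and 8.62% higher and 59.2% lower in siNC. At 3 h 2 were higher and 3 lower with both siRNAs, against 1.83% and 41.2% of all genes in siCPSF6 and 3.32% and 50.1% in siNC. The error of the spike-in scale is shared by all genes of a library, so the p-values on this scale are too small to the extent that the scale itself varies. The siCPSF6 replicates of 3 h differed most, with a log2 scale of 0.291 and -0.093.

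Between 3 and 6 h as deposited, 2 RNAs rose and 4 fell in siCPSF6 (22.2% and 11.9% of all genes), and 3 rose and 5 fell in siNC (29.1% and 19.3%). The rRNAs rose with both siRNAs, MT-RNR1 by 0.31 in siCPSF6 and 0.27 in siNC (SE 0.09 each) and MT-RNR2 by 0.50 and 0.40 (SE 0.07 each), and MT-CO1 rose by 0.25 in siNC. None of these rises was called on the spike-in scale, where MT-RNR1 had -0.04 in siCPSF6 and -0.02 in siNC, MT-RNR2 0.15 and 0.12, and MT-CO1 in siNC -0.03. MT-CYB fell by 0.92 in siCPSF6 and by 1.26 in siNC. MT-CO3 fell by 0.30 in siCPSF6 and 0.43 in siNC, MT-ATP6 by 0.20 and 0.39, and MT-ATP8 by 0.23 and 0.56. The calls of MT-RNR1 and MT-ATP6 in siCPSF6 were lost without any 1 of the 4 siCPSF6 libraries of 3 and 6 h (0.29 to 0.33, and -0.22 to -0.17). That of MT-ATP8 in siCPSF6 was lost without siCPSF6 3 h replicate 1 (-0.15), 6 h replicate 1 (-0.24) or 6 h replicate 2 (-0.22), that of MT-CO3 without 3 h replicate 2 (-0.27) or 6 h replicate 2 (-0.25), and those of MT-RNR1 and MT-CO1 in siNC without siNC 3 h replicate 2 (0.25 and 0.20) or 6 h replicate 1 (0.23 and 0.19).

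Ratios of 2 RNAs within a library do not depend on how libraries are scaled. The count of MT-RNR2 was 7.59 and 6.14 times that of MT-RNR1 in siCPSF6 and 7.94 and 7.88 times in siNC libraries at 0 h. At 3 h the ratio was 2.33 and 2.36 in siCPSF6 and 2.45 and 2.46 in siNC, and at 6 h 2.67 and 2.68 in siCPSF6 and 2.63 and 2.75 in siNC. It was lowest at 3 h, and every 6 h library lay above every 3 h library but far below those of 0 h. The change in the log2 ratio at 6 h against 0 h was -1.45 (exact permutation test of time labels within each siRNA, two-sided p = 0.0089, adjusted over 12 ratio tests 0.019). This test and the other time tests of ratios below moved the labels of 0, 3 and 6 h together. Their p-values therefore rest on the 3 h libraries too and not on those of 0 and 6 h alone. MT-CYB was 0.188 and 0.201 of MT-CO1 in siCPSF6 and 0.186 in both siNC libraries at 0 h, and 0.034 and 0.0372 in siCPSF6 and 0.018 and 0.0218 in siNC libraries at 6 h. Its log2 ratio to MT-CO1 changed by -2.84 (exact permutation p = 0.00025, the smallest the test can give, adjusted 0.00099).

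MT-CO2 also lost ground to MT-CO1, by -0.89 (exact permutation p = 0.00025, adjusted 0.00099), although both belong to the same enzyme. The ratio stood at 0.378 and 0.385 in siCPSF6 and 0.389 and 0.395 in siNC at 0 h, and at 0.24 and 0.244 in siCPSF6 and 0.173 and 0.186 in siNC at 6 h. MT-CO3 lost 0.40 against MT-ATP6, its neighbour in the precursor (exact permutation p = 0.00074, adjusted 0.0022), and MT-RNR2 gained 1.29 on MT-CO1 (exact permutation p = 0.00025, adjusted 0.00099). MT-ATP8 and MT-ATP6, which share an mRNA, kept a ratio of 0.0366 to 0.0423 in all 12 libraries, with a time difference of -0.04 (exact permutation p = 0.37, adjusted 0.44). Counting can split reads of overlapping genes, so the level of this ratio is uncertain.

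**Figure D3:**
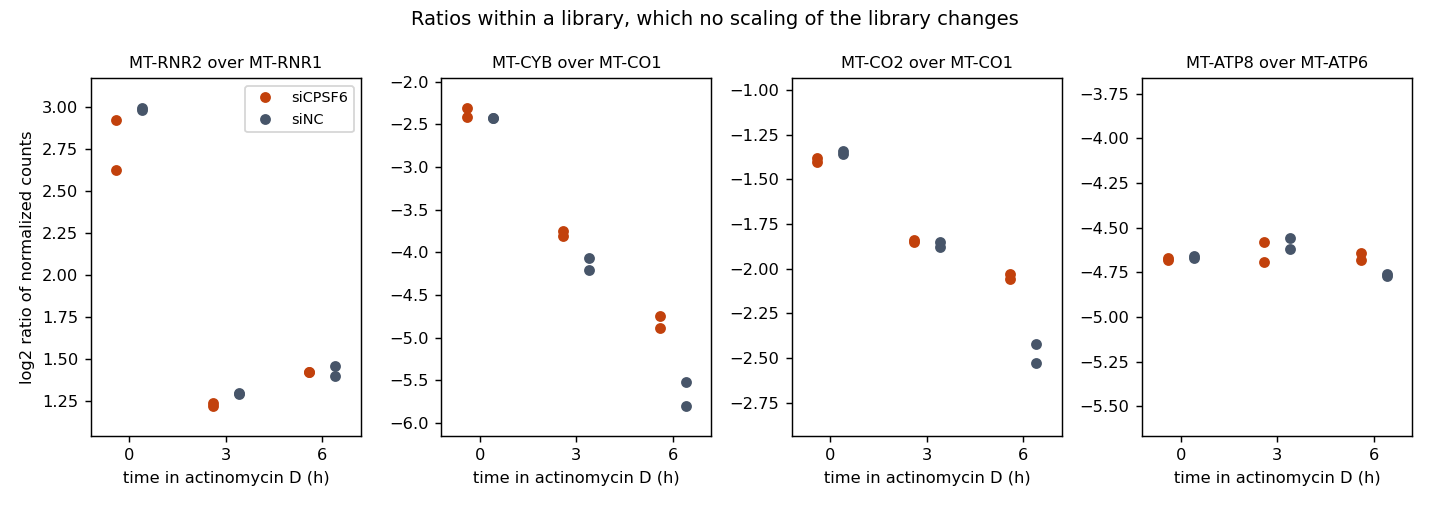
Log2 ratio of normalized counts of 2 RNAs within each library against time in actinomycin D, a point per library, siCPSF6 left of siNC. MT-CYB over MT-CO1 and MT-CO2 over MT-CO1 drop at both steps, MT-RNR2 over MT-RNR1 drops by 3 h and lies higher again at 6 h, and MT-ATP8 over MT-ATP6 lies within a narrow band.

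Silencing of CPSF6 went with a higher MT-CYB. Averaged over the 3 times, MT-CYB was 1.38-fold higher in siCPSF6 than in siNC (log2 0.47, SE 0.04, limma adjusted p = 1.2e-07) and higher in siCPSF6 in 6 of 6 same-numbered pairs. MT-CO2 (0.18, limma adjusted p = 0.00052), MT-ATP8 (0.16, limma adjusted p = 0.0038) and MT-ATP6 (0.14, limma adjusted p = 0.0047; SE 0.04 each) also rose. MT-RNR1 (0.12), MT-CO3 (0.10), MT-CO1 (0.05) and MT-RNR2 (0.02) did not pass. Thus 4 of 8 were called higher, against 34.4% of all genes, and none lower, against 35.4%. Among the 4 are MT-ATP6 and MT-ATP8, which share an mRNA and are not separate results. Limma without its trend and robust settings gave the same counts, and none was lower at an unadjusted p under 0.05. With the replicate block 6 were called, MT-RNR1 (limma adjusted p = 0.04) and MT-CO3 (limma adjusted p = 0.0078) in addition, against 74.4% of all genes in either direction. MT-RNR1 also passed without siCPSF6 0 h replicate 1 (0.17) or siNC 6 h replicate 1 (0.13), and MT-CO3 without siNC 3 h replicate 1 or siNC 6 h replicate 1 (0.13 without either).

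At 0 h, before actinomycin D could act, MT-CYB alone was called, with 1.19 times its siNC level (log2 0.25, SE 0.07, limma adjusted p = 0.013). This is 1 of 8 higher, against 21.8% of all genes, and 0 lower, against 21.1%; at an unadjusted p under 0.05 limma had 5 higher and 1 lower, and without trend and robust settings 2 and 1. The call was lost without siCPSF6 0 h replicate 2 (0.18) or siNC 0 h replicate 2 (0.22), and on the spike-in scale (0.15). The other mRNAs had differences of 0.14 to 0.21 and MT-RNR2 -0.16, none passing. With the replicate block all 6 mRNAs were called higher and MT-RNR2 lower (limma adjusted p = 0.0015), against 50.6% of all genes. Without siCPSF6 0 h replicate 1 MT-RNR1 passed (0.22), without siNC 6 h replicate 1 or 2 MT-CO1 did (0.19), and without any of the siNC libraries of 3 or 6 h MT-CO3 did (0.21).

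At 3 h MT-CYB was again the only call, at 1.32 times its siNC level (log2 0.41, SE 0.07, limma adjusted p = 0.00031), against 26.2% of all genes higher and 29.1% lower; none was lower at an unadjusted p under 0.05. The differences of the other 7 lay between -0.01 and 0.13. At 6 h 5 of 8 were higher, against 27% of all genes, and none lower, also at an unadjusted p, against 28.6%. MT-CYB was 1.68-fold higher (log2 0.75, SE 0.07, limma adjusted p = 7.8e-07). MT-CO2 was higher by 0.34, MT-ATP8 by 0.33, MT-ATP6 by 0.24 and MT-RNR2 by 0.16 (SE 0.07 each), with limma adjusted p = 0.00049, 0.0013, 0.0084 and 0.046.

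The call of MT-RNR2 at 6 h was lost without any 1 of 8 libraries, all but siCPSF6 0 h and siNC 3 h (0.14 to 0.18), and that of MT-ATP6 without siCPSF6 6 h replicate 1 (0.21) or siNC 6 h replicate 2 (0.20), while MT-RNR1 passed without either siCPSF6 0 h library (0.17). On the spike-in scale MT-CYB was the single call in the average (0.43, SE 0.08) and at 3 and 6 h (0.44 and 0.72, SE 0.15 each), and MT-CO2 at 6 h had 0.31 (limma adjusted p = 0.062). Relative to MT-CO1 in the same library MT-CYB was higher in siCPSF6 by 0.42 (exact permutation of siRNA labels within each time, p = 0.0093, the smallest the test can give, adjusted 0.019). MT-RNR2 over MT-RNR1 was lower in siCPSF6 by -0.09 (exact permutation p = 0.028, adjusted 0.048; from -0.15 to -0.04 with 1 library left out, the call being lost in 7 of 12 cases), and the other 4 ratios did not pass (exact permutation p = 0.23 to 0.75).

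**Figure D4:**
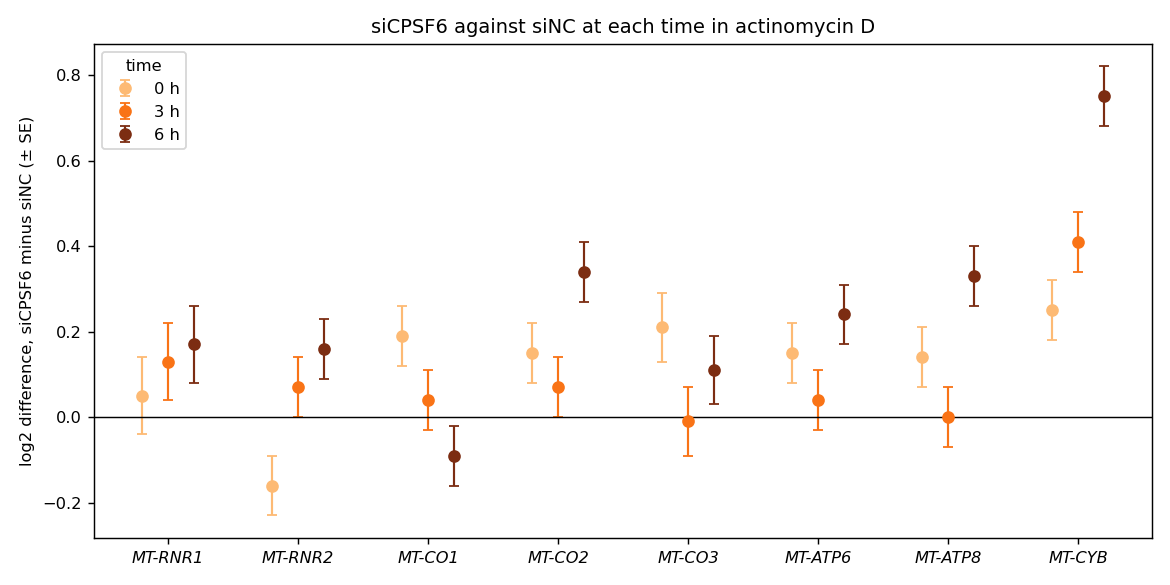
Log2 difference of siCPSF6 minus siNC for each RNA at 0, 3 and 6 h, as deposited, with the SE of the fit of 12 libraries. MT-CYB lies above 0 at each time and at 0.75 at 6 h, and the values of the other 7 RNAs lie between -0.16 and 0.34.

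Whether the change over time differed between the siRNAs was tested directly. MT-CYB fell less in siCPSF6 from 0 to 6 h, by a difference of 0.50 in the log2 changes (SE 0.11, limma adjusted p = 0.0032), and MT-RNR2 rose more, by 0.32 (SE 0.09, limma adjusted p = 0.019). These are 2 of 8 higher, against 12% of all genes, and 0 lower, against 12.4%; 1 was lower at an unadjusted p under 0.05, MT-CO1 with -0.28. With the replicate block MT-CO1 was called lower (limma adjusted p = 0.0029) and MT-CO2 higher (0.19, limma adjusted p = 0.025), against 34% of all genes in either direction, and without siNC 6 h replicate 2 MT-CO1 was called at -0.35. The call of MT-RNR2 was lost without siNC 0 h replicate 1 (0.30), siCPSF6 6 h replicate 1 (0.34) or 6 h replicate 2 (0.30); that of MT-CYB held without any 1 library. Neither passed on the spike-in scale (MT-CYB 0.58, SE 0.21, limma adjusted p = 0.08; MT-RNR2 0.40, SE 0.18, limma adjusted p = 0.19).

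Over the first 3 h no difference between the siRNAs was called for any of the 8, against 2.26% of all genes higher and 0.734% lower. At an unadjusted p under 0.05 limma had 1 higher, with and without its trend and robust settings, and with the replicate block MT-RNR2 was called (0.23, limma adjusted p = 0.011), against 7.92% of all genes. From 3 to 6 h MT-CYB (0.35, limma adjusted p = 0.036) and MT-ATP8 (0.33, limma adjusted p = 0.043) fell less in siCPSF6, which is 2 of 8 against 7.84% of all genes higher and 7.47% lower, with none lower at an unadjusted p. With the block 4 were called, MT-CO2 (0.27) and MT-ATP6 (0.19) in addition, against 24.6% of all genes. In limma without trend and robust settings neither call held, with 3 higher at an unadjusted p.
The call of MT-CYB from 3 to 6 h was lost without siCPSF6 3 h replicate 1 (0.33) or 2 (0.37), siNC 3 h replicate 1 (0.37) or 2 (0.33), siCPSF6 6 h replicate 2 (0.28) or siNC 6 h replicate 1 (0.27). That of MT-ATP8 held only without siCPSF6 3 h replicate 1, siNC 3 h replicate 2 or siNC 6 h replicate 1 and was lost without each of the other 9 libraries (0.25 to 0.34).

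Beside the 8 RNAs, mitochondrial DNA encodes 7 mRNAs of complex I, the NADH dehydrogenase, and these showed how MT-CYB and the rRNAs stand among their neighbours. At 6 h 6 of the 7 fell and none rose with both siRNAs as deposited, against 27.6% of all genes lower in siCPSF6 and 30.7% in siNC, and MT-ND4 did not pass (0.13 in siCPSF6 and 0.09 in siNC). The 7 had a median of -1.46 in siCPSF6 and -1.28 in siNC. MT-ND1, the mRNA gene next to MT-RNR2, changed by -2.04 in siCPSF6 and -1.79 in siNC and MT-ND2 by -2.87 and -3.10, beside -2.02 and -2.51 for MT-CYB. MT-ND6, the only one of the 15 genes on the other strand, changed by -6.58 in siCPSF6 and -7.40 in siNC, to 14 and 24 normalized counts in siCPSF6 and 10 and 13 in siNC libraries. MT-ND3, between MT-CO3 and MT-ND4L on the map, fell (-1.46 in siCPSF6 and -1.28 in siNC), while MT-ND4L (-0.29 and -0.38) and MT-ND5 (-0.35 and -0.36) fell less as deposited. Scaled to the spike-ins all 7 fell with both siRNAs, with medians of -2.40 and -2.29, among them MT-ND4 (-0.81 and -0.92), MT-ND4L (-1.22 and -1.40) and MT-ND5 (-1.29 and -1.38). In the siRNA average 5 of the 7 were higher in siCPSF6 and none lower, against 34.4% and 35.4% of all genes, with MT-ND2 at 0.32 (SE 0.04), and on the spike-in scale 2 were higher, MT-ND2 (0.29) and MT-ND4L (0.23).

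**Figure D5:**
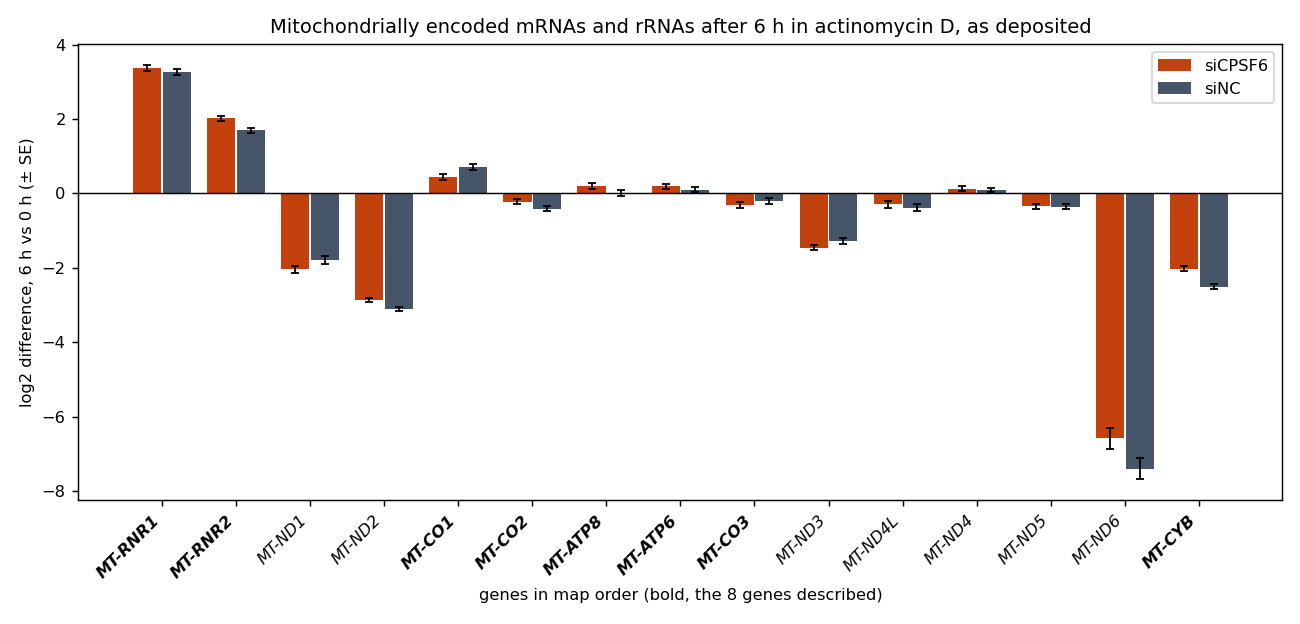
Log2 difference at 6 h against 0 h for the 15 mitochondrially encoded mRNAs and rRNAs in map order, as deposited, with the SE of the fit; siCPSF6 bars stand left of siNC bars, and the 8 genes described are in bold. MT-RNR1 and MT-RNR2 are the highest bars, MT-ND6 the lowest, and the bars of MT-CYB, at -2.02 and -2.51, stand between those of MT-ND3 and MT-ND2 in depth.

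The nuclear mRNAs whose proteins join the products of these genes were described from lists of complex III, IV and V subunits. At 6 h all 11 nuclear genes of complex IV were higher as deposited, against 49.8% of all genes in siCPSF6 and 48.6% in siNC, with a median of 1.09 in siCPSF6 and 1.34 in siNC. The same held for all 18 of complex V (1.0 and 1.28) and all 9 of complex III (0.88 and 1.20). COX8A, a small subunit of complex IV, rose by 1.39 in siCPSF6 and 1.89 in siNC, and UQCRH of complex III rose by 1.21 and 1.61. Scaled to the spike-ins the medians were 0.16 and 0.33 for complex IV, 0.07 and 0.27 for complex V and -0.05 and 0.19 for complex III, against -0.57 and -0.70 over all genes. Averaged over time, siCPSF6 was lower than siNC in 9 of 11 nuclear genes of complex IV, 13 of 18 of complex V and 7 of 9 of complex III, with 1 of complex III higher, against 35.4% and 34.4% of all genes; scaled to the spike-ins these counts were 6, 7 and 5. At 0 h 1 of 11, 3 of 18 and 2 of 9 were lower, against 21.1% of all genes, with 4 of complex V and 1 of complex III higher and medians of 0.06, -0.03 and -0.01. In the average COX5A and COX5B fell by 0.36 each and ATP5PD by 0.50 (SE 0.04 each).

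Of 40 nuclear genes for mitochondrial transcription and RNA processing, 14 rose and 22 fell at 6 h in siCPSF6 as deposited (49.8% and 27.6% of all genes) and 14 rose and 21 fell in siNC (48.6% and 30.7%), with medians of -0.47 and -0.41. With spike-in scaling none rose, 35 fell in siCPSF6 and 31 in siNC, with medians of -1.40 and -1.42. TRMT10C, a subunit of the RNase P that cuts tRNA 5′ ends in mitochondrial precursors, fell in both (-2.84 in siCPSF6 and -2.96 in siNC), and FASTKD5, which is needed to process precursors at sites without tRNAs, likewise (-2.59 and -2.60). Averaged over time FASTKD5 was higher in siCPSF6 by 0.90 (SE 0.07), TOP1MT, the mitochondrial topoisomerase, by 0.75 and POLG, the mitochondrial DNA polymerase, by 0.71 (SE 0.05 each). In that average 18 of the 40 were higher and 11 lower (34.4% and 35.4% of all genes), with a median of 0.10 against -0.01 over all genes, and on the spike-in scale 14 were higher and 9 lower.

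Copies of mitochondrial DNA in the nuclear genome can take reads of these RNAs. On chromosome 1, MTATP6P1 (chr1:633696-634376) is identical to MT-ATP6 at 671 of 681 bases (98.5%) and MTCO1P12 (chr1:631074-632616) to MT-CO1 at 1522 of 1542 (98.7%). MTATP6P1 had 6348 to 11912 normalized counts, which was 6.62% to 8.71% of those of MT-ATP6, and MTCO1P12 had 424 to 951, or 0.0962% to 0.128% of those of MT-CO1. MTATP6P1 had its highest values at 3 h, as MT-ATP6 did, and reads of a copy and its original cannot be told apart where the bases are the same. For MT-ATP6 the share taken by the copy was 7.46% and 7.08% in siCPSF6 against 6.62% and 6.81% in siNC libraries at 0 h. At 3 h it was 7.9% and 7.34% against 8.44% and 8.71%, and at 6 h 7.28% and 7.84% against 7.01% and 7.31%. The siRNAs were thus apart at 0 and 3 h, in opposite directions, and overlapped at 6 h.

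Among 10528 nuclear genes with a mean of at least 100, the genes nearest to each RNA over the 6 centred group means were sought by root mean square distance on the log2 scale. For MT-CYB these were AAR2 (0.11), NOP2 (0.13) and TIMM9 (0.14), and for MT-RNR2 L3MBTL1 (0.12) and GOLGA8B (0.13). MT-RNR1 had no near neighbour: its closest were CAPN12 (0.52), COL7A1 (0.53) and EME2 (0.55). MT-CO2 was matched most closely, by SPHK1 (0.02), CTDSP2 (0.03) and JKAMP (0.04), and MT-CO1 by NCKAP1, TUBB and ZNHIT3 (0.04 each). For MT-ATP6 VPS13B (0.04), for MT-ATP8 IRF3 (0.06) and for MT-CO3 COG5 (0.06) came first. These distances rest on 6 points that share libraries, and they carry no test. They were not scaled for the size of a change, so an RNA that moved little finds close genes more readily than an RNA that moved much. The contrast of MT-RNR1 with MT-CO2 therefore does not compare pattern alone.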

How the data were processed

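RNA of 12 HepG2 libraries was read from 2 tables. Per the submitters' processing notes STAR, RSEM and hg38 were used; the sources used here give no versions, annotation or strand setting. The authors' count table holds whole numbers whose upper quartile is 660.5 or 661 in every library, so its deposited values were treated as a score (upper-quartile normalized, rounded counts) and not as raw counts, and no count test was run. The authors' second table holds deposited TPM values, used for levels per length and as an alternative. Columns were matched to samples by the sample descriptions, and groups were taken from the sample titles. Positions and sequences came from GENCODE release 29. Gene names came from a reference list of gene symbols, and from GENCODE release 29 where that list had none. In this way 22144 of 22148 genes were named, and 87 further entries were spike-ins.

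The test was limma 3.58.1 in R 4.3.3 (trend and robust empirical Bayes) of log2 values, log2(normalized count + 1), over all 12 libraries as 6 group means with 6 residual degrees of freedom, and fold changes are on that scale. It covered 12939 genes with a mean of at least 20, all 8 mitochondrial genes included, and p-values were adjusted by Benjamini-Hochberg within each comparison (threshold 0.05). Spike-in scaling used 36 spike-ins with a mean of at least 100. Ratios were tested by exact permutation within strata, in Python 3.11.15. The time tests of ratios permuted the labels of 0, 3 and 6 h together. Alternatives changed the pseudocount, filter, scaling, table, limma settings, samples fitted and replicate block, and left out each library. The scripts were tested on simulated data.

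Depth was 21800000 to 30300000 reads per library, estimated from the steps between deposited values. Replicates are labelled biological in the design, but nothing names separate days, so p-values measure the spread between these samples. Same-numbered libraries deviated together (correlations 0.11 to 0.24 over 15 pairs of groups), which the labels do not explain; the test itself has no block, and a fit with replicate number as a block is given beside results whose calls it changes. No replicate columns were identical. The genes and the lists (complex subunits, mitochondrial RNA machinery, RNAs without tails, markers) were chosen with earlier results of these data known. Named genes were the 8, CPSF6, the complex I mRNAs, nuclear copies, RNAs without tails, nearest patterns and the measured markers of other cells. From each other list up to 3 with the smallest p in a comparison were named.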

Additional observations from a re-analysis of the deposited data

Results flagged for a closer look

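In 4 cases the change over time differed between siCPSF6 and siNC by a test of the difference itself. For MT-CYB the log2 change from 0 to 6 h was -2.02 in siCPSF6 and -2.51 in siNC, a difference of 0.50 (limma adjusted p = 0.0032), and it was 0.58 on the spike-in scale, where it did not pass. From 3 to 6 h MT-CYB changed by -0.92 in siCPSF6 and -1.26 in siNC, a difference of 0.35 (limma adjusted p = 0.036). The MT-CYB call for this step was lost without any 1 of 6 libraries, on the spike-in scale (0.29) and without limma's trend and robust settings. MT-ATP8 changed by -0.23 in siCPSF6 and -0.56 in siNC over the same hours, a difference of 0.33 (limma adjusted p = 0.043). This call was lost without any 1 of 9 libraries, on the spike-in scale (0.27) and without limma's trend and robust settings. MT-RNR2 changed by 2.02 in siCPSF6 and 1.70 in siNC from 0 to 6 h, a difference of 0.32 (limma adjusted p = 0.019). The MT-RNR2 call was lost without any 1 of 3 libraries and on the spike-in scale (0.40).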

How the results depend on the processing

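The rises of MT-RNR1 and MT-RNR2 and the falls of MT-CYB and MT-CO2 from 0 to 6 h kept their direction under every alternative run, as did the higher MT-CYB in siCPSF6. The counts of RNAs called, of 8, moved as follows. Pseudocounts of 0.1 and 10 and a mean of at least 100 moved no count by over 1.5 times. With no filter, siCPSF6 against siNC at 0 h had 3 higher and 1 lower, and the difference of the 6 h changes 1 lower. With median-ratio scaling the comparison at 0 h had 6 higher, 3 h against 0 h 3 lower in siCPSF6 and 2 in siNC, 6 h against 3 h 1 higher in siCPSF6, 6 h against 0 h 3 higher in siCPSF6 and 5 lower in siNC, and the difference of the 6 h changes 1 lower. With spike-in scaling the siRNA average had 1 higher, 0 h 0 and 6 h 1, 3 h against 0 h 2 higher and 3 lower with each siRNA, 6 h against 3 h 0 higher with each, 6 h against 0 h 2 higher and 6 lower in siCPSF6 and 6 lower in siNC, and the differences of the changes 0 higher. With TPM values, siCPSF6 against siNC at 0 h had 1 lower, 3 h 3 higher, 3 h against 0 h 2 higher and 5 lower in siCPSF6 and 2 higher and 6 lower in siNC, 6 h against 3 h 1 higher in siCPSF6 and 0 in siNC, 6 h against 0 h 2 higher and 6 lower in siCPSF6 and 6 lower in siNC, and the differences 1 higher (6 against 3 h) and 5 higher (6 against 0 h). Without limma's trend and robust settings 6 h against 3 h in siCPSF6 had 1 higher and 2 lower and the difference 0 higher; in a fit of the groups compared alone that difference had 1 higher. With the replicate block 0 h had 6 higher and 1 lower, 3 h against 0 h in siCPSF6 2 lower, and the differences 1 higher (3 against 0 h), 4 higher (6 against 3 h) and 1 lower (6 against 0 h); calls it added are given with the results.

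Leaving out 1 library gave 4 to 6 higher in the siRNA average, 0 to 3 at 0 h and 3 to 6 at 6 h. It gave 1 to 2 higher and 1 to 4 lower for 6 against 3 h in siCPSF6, 1 to 3 higher for this step in siNC, 3 to 5 higher for 6 against 0 h in siCPSF6, and 0 to 1 higher for the difference of 6 against 3 h. The difference of 6 against 0 h had 1 to 2 higher and 0 to 1 lower, and the log2 ratio of MT-RNR2 over MT-RNR1 between siRNAs ran from -0.15 to -0.04.

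Single RNAs whose sign turned did so with the scaling; beyond the change of scale the cause was not tested. With median-ratio scaling MT-CO3 at 3 h in siCPSF6 was -0.20, and at 6 h MT-ATP8 was -0.08 in siCPSF6 and -0.27 in siNC and MT-ATP6 -0.09 and -0.17. On the spike-in scale at 3 h MT-CO1 was -0.27 with both siRNAs, MT-ATP8 -0.16 with both, MT-ATP6 -0.20 in siCPSF6 and -0.23 in siNC, and MT-CO3 -0.59 and -0.50. At 6 h MT-CO1 was -0.50 and -0.30, MT-ATP8 -0.73 and -1.0 and MT-ATP6 -0.74 and -0.91, and from 3 to 6 h MT-RNR1 was -0.04 and -0.02 and MT-CO1 in siNC -0.03. In TPM at 3 h MT-CO1 was -0.17 in siCPSF6 and -0.12 in siNC, MT-ATP8 -0.56 and -0.93, MT-ATP6 -0.10 and -0.15 and MT-CO3 -0.48 and -0.40. At 6 h MT-CO1 was -0.32 and -0.16, MT-ATP8 -0.79 and -1.25 and MT-ATP6 -0.51 and -0.74. From 3 to 6 h MT-CO1 was -0.15 and -0.04. The TPM values of MT-ATP8 rest on an implied length of 3 to 6 bases that differed between libraries. Each group has 2 replicates, and depth limits only lists with low counts.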
